A study of Mus musculus with 2 samples.

Results

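The genes that write and erase DNA methylation were examined in pluripotent wild-type embryonic stem cells of the mouse after a 10 min pulse of 4-thiouridine (4sU). The set holds 9 protein-coding genes, Dnmt1, Uhrf1, Dnmt3a, Dnmt3b, Dnmt3l, Tet1, Tet2, Tdg and Mbd3, out of 21587 coding genes in the table. They were chosen by symbol, through the GENCODE M21 annotation of the mouse genome build GRCm38, and contribute 55 protein-coding transcripts, of which 54 had a mean exon value above 1. The exception was Dnmt3a-208, which is listed at 0 in the unlabeled library. The cells were feeder-depleted DTCM23/49 XY embryonic stem cells, of WT genotype, grown on gelatin in medium with serum and leukemia inhibitory factor, and both pools came from cells given 200 µM 4sU for 10 min. 4sU is a uridine analogue that cells build into RNA as they make it, so RNA made during the pulse can be biotinylated and pulled out on streptavidin beads. The labeled (newly transcribed) RNA and the unlabeled (preexisting) RNA were each sequenced as 1 library of biological replicate 1. One label field names the second library preexisting RNA and another total RNA, and it is treated as unlabeled RNA here.

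With 1 library per pool there were no replicates and no test was possible. Each value below describes these libraries, and whether a difference would recur in other cultures is not known. The authors deposited an exon value and, where a transcript has introns, an intron value, both relative abundances normalised to length. Their scale is 10 times that of TPM, and values are given in this deposited unit throughout. Read counts are not part of this table, so the depth is unknown and no counting error can be attached to a value. Introns took 15.4% of the labeled and 6.26% of the unlabeled library. All 8 of 8 stem cell marker genes were present, with unlabeled exon sums of 72.9 to 6580, and their summed exon level was 10340 in the labeled and 12610 in the unlabeled library. The 6 fibroblast markers, which would show feeder cells, summed to 8.72 labeled and 20.85 unlabeled, and the collagen gene Col3a1 and the proteoglycan gene Lum were listed at 0 in both libraries. Of 4 endoderm markers, Gata6, Sox17 and Afp were listed at 0 in both libraries, and Gata4 had 4.87 labeled and 5.88 unlabeled. The 4 mesoderm and neural markers summed to 74.28 labeled and 74.58 unlabeled, mostly from Pax6. In a bulk culture such as this, fewer cells with a transcript and less of it per cell cannot be told apart.

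In mammals DNA methylation sits mostly on the cytosine of CpG dinucleotides. DNMT1 copies it onto the new strand after replication, brought to hemimethylated sites by UHRF1, while DNMT3A and DNMT3B methylate unmarked DNA with the help of DNMT3L, a relative that has no catalytic activity of its own. TET enzymes oxidise 5-methylcytosine, TDG cuts out the oxidised products for base excision repair, and MBD3, which belongs to the family of methyl-CpG binding proteins, is a subunit of the nucleosome remodelling and deacetylase complex NuRD. Embryonic stem cells are known for high levels of the de novo enzymes and of Tet1.

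The levels of single transcripts were compared first, because the deposited values are already corrected for length. The isoforms of a gene had similar values, so that a sum over a gene grows with the number of isoforms annotated: in 64.2% of 2965 coding genes with at least 3 complete transcripts, the highest unlabeled isoform value was less than 2 times the lowest. Isoforms of a gene share exons and are not replicates. Over the complete coding transcripts, Tet1 had the highest median exon value in both libraries, 676 labeled and 1635 unlabeled. Dnmt3b was next in the unlabeled library, with a median of 792, but came after Dnmt3l in the labeled library, with 277. Dnmt3l had a median of 391 in the labeled and 268 in the unlabeled library.

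**Figure D1:**
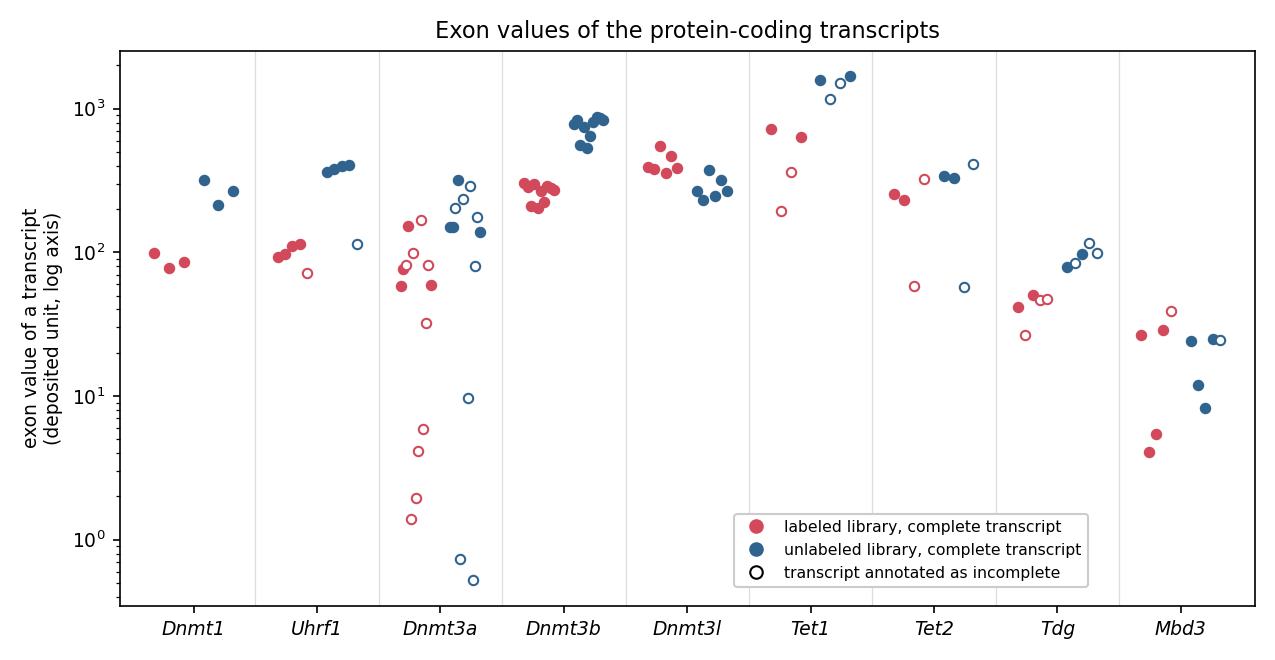
Exon values of the protein-coding transcripts of the 9 genes on a log axis in the deposited unit; each point is 1 transcript, red in the labeled and blue in the unlabeled library, filled where the annotated transcript is complete and open where it is not, and Dnmt3a-208, listed at 0 in the unlabeled library, has no blue point. The unlabeled points lie above the labeled points of the same gene for Dnmt1, Uhrf1, Dnmt3b and Tet1, and the complete transcripts of Dnmt3l lie mostly the other way, from 359 to 547 labeled against 232 to 372 unlabeled.

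In the middle of the unlabeled order were Uhrf1 with a median of 387, Tet2 with 333 and Dnmt1 with 269, followed by Dnmt3a with 151. The isoform range of Dnmt3l (232 to 372) overlapped those of Dnmt1 (212 to 316), Dnmt3a (139 to 321) and Tet2 (328 to 338), so these values fix no order for it among them. The range of Uhrf1 (364 to 406) met only the upper end of that of Dnmt3l. Tdg had a median of 88.2 and Mbd3, the lowest, 18.0. The least abundant member was thus the NuRD subunit and the most abundant the oxidase Tet1, in both libraries.

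The maintenance pair behaved alike. Dnmt1 (ENSMUSG00000004099; chromosome 9, 20907209 to 20959888, minus strand) had 3 coding transcripts, and Dnmt1-201, which encodes 1620 residues, had an exon value of 99.1 labeled and 316 unlabeled. Dnmt1-203, with 1501 residues, had 85.8 and 269, and Dnmt1-202, which also encodes 1501 residues but starts farther upstream, had 77.4 and 212. Every Dnmt1 isoform was lower in the labeled library. Uhrf1 (ENSMUSG00000001228; chromosome 17, 56303321 to 56323486, plus strand) encodes the protein that recognises hemimethylated DNA, and its 4 complete transcripts had 92.2 to 113 labeled and 364 to 406 unlabeled. Their labeled to unlabeled exon ratios, 0.254 to 0.279, lay close together. The 5′ fragment Uhrf1-207, whose annotated end is missing, had 71.7 labeled and 115 unlabeled, a ratio of 0.623.

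Of the de novo enzymes, Dnmt3b had a higher and Dnmt3a a lower median exon value than the maintenance pair. Dnmt3a (ENSMUSG00000020661; chromosome 12, 3806007 to 3914443, plus strand) has a start inside the gene, at position 3891728, that lies 85.7 kb from the gene start and gives rise to Dnmt3a-203 and Dnmt3a-205, with 689 residues. The transcripts from the upstream start, Dnmt3a-201 and Dnmt3a-218, encode the long protein of 908 residues. The short form, known as DNMT3A2, is the form of the enzyme that embryonic stem cells are known to express. Dnmt3a-205 had the highest value of the 13 coding transcripts in the unlabeled library, 321, with 152 labeled, while Dnmt3a-203 had 150 and 76.6. The long transcripts had 151 unlabeled and 58.2 labeled for Dnmt3a-201, and 139 and 58.9 for Dnmt3a-218.

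The transcripts of Dnmt3a fell into 3 classes by position. The 3 transcripts that end upstream of the internal start had 0 to 0.73 unlabeled and 1.39 to 5.88 labeled, although Dnmt3a-206 shares 90.8% of its exon bases with Dnmt3a-201. The 4 that span the internal start had 80.3 to 204 unlabeled, and the 6 at or downstream of it had 9.61 to 321, with a median of 206. The upstream class did not overlap with either of the others in either library except for Dnmt3a-209, a short fragment with 4.11 labeled. Spanning and downstream transcripts share exons, and how reads over shared exons were divided among isoforms was not tested.

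A sequence before the upstream and one before the internal start region of Dnmt3a are shown because the isoforms divide by start. They are the 250 bases before a start in RefSeq (build GRCm38.p6), 5′ to 3′ on the gene's strand, with each CpG in capitals. The upstream window shown holds 38 CpG, and that before the internal start, of which 16 bases are transcribed in Dnmt3a-205, holds 15. The upstream window shown ends upstream of the GENCODE starts of Dnmt3a-201 and Dnmt3a-218. Another upstream window, chr12:3806910-3807159, overlaps it in part, holds 40 CpG and is not shown. The median over 32851 promoters was 6, with quartiles of 2 and 16.
Dnmt3a upstream start, chr12:3806730-3806979: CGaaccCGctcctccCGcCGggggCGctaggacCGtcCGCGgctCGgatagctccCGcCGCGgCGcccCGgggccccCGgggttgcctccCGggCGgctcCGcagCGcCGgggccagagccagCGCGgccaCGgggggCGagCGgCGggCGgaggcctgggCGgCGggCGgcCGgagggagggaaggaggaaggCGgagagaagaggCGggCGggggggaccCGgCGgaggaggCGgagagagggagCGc
Dnmt3a internal start, chr12:3891494-3891743: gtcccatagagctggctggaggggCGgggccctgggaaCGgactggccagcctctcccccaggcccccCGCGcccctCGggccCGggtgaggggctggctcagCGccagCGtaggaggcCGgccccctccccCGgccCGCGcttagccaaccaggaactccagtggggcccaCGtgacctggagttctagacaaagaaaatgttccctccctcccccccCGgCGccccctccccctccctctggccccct

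**Figure D2:**
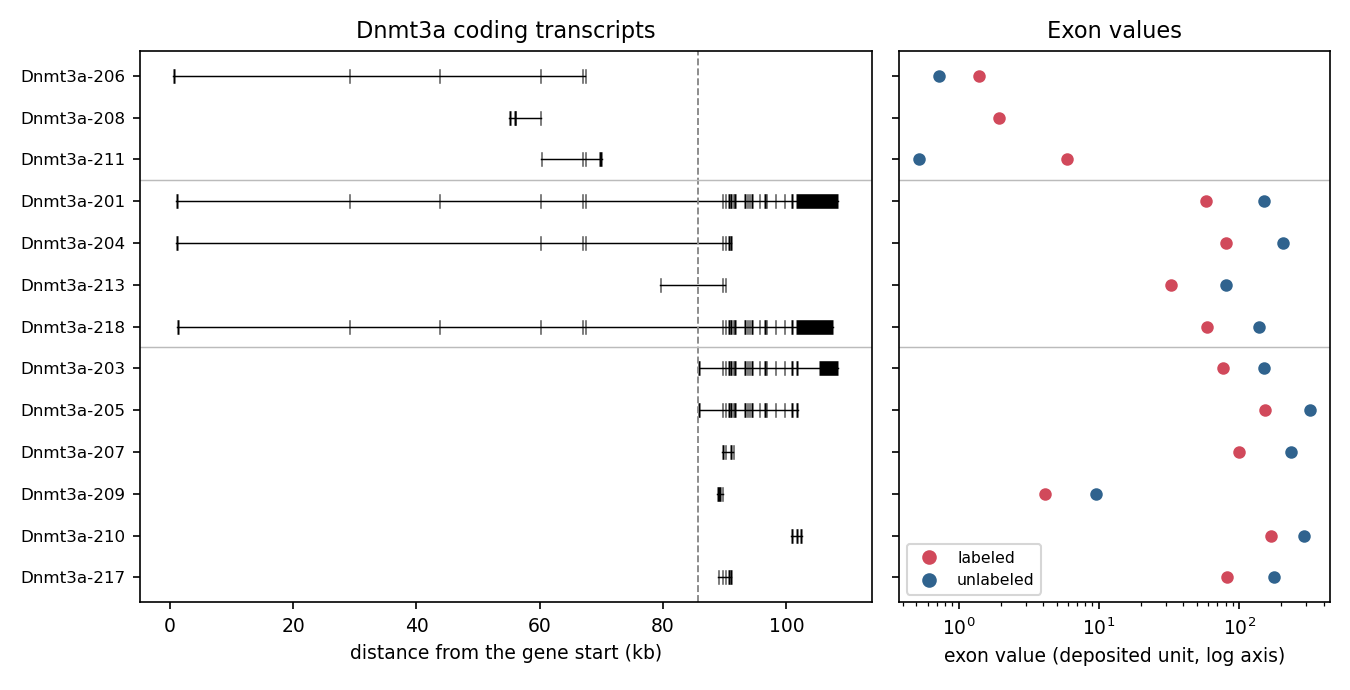
Left, exons (blocks) and introns (lines) of the 13 Dnmt3a coding transcripts against the distance from the gene start in kb, with the internal start as a dashed line; right, exon value of each on a log axis, labeled in red and unlabeled in blue. The 3 transcripts at the top, which end before the internal start, have unlabeled values of at most 0.73, and all others have at least 9.61.

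The intron values of Dnmt3a differed between its isoforms. Dnmt3a-203 had an intron value of 17.1 labeled and 30.6 unlabeled, while Dnmt3a-205, from the same start, had 11.2 and 4.10. The last intron of Dnmt3a-203 (chr12:3907787-3911275) lies inside the 6838-base last exon of Dnmt3a-201, and 23.7% of its intron bases are exonic in another coding transcript. In Dnmt3a-210, a 3′ fragment with 41.3% of such bases, the intron value was 60.9 labeled and 177 unlabeled. They were the only Dnmt3a coding transcripts with a higher intron value in the unlabeled than in the labeled library. Dnmt3a-217, in which 24.2% of intron bases are exonic elsewhere, had 5.76 labeled and 2.54 unlabeled. Its introns lie outside that last exon, and one overlaps an exon of Dnmt3a-209, whose exon value was 4.11 labeled and 9.61 unlabeled. Whether exonic bases account for the intron values was not tested.

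Dnmt3b (ENSMUSG00000027478; chromosome 2, 153649450 to 153687730, plus strand) had 10 coding transcripts, all complete, with 205 to 304 labeled and 535 to 871 unlabeled. Every isoform was lower in the labeled library, with ratios of 0.279 to 0.416. Among their differences are 3 coding exons, each in 6 of the 10 transcripts, while all 10 share 3378 bases, 78.2% of the exon bases of Dnmt3b-210. The last pair of these exons belongs to the region that encodes the catalytic domain, and the 776- and 796-residue isoforms lack it. The 3 exons are shown 5′ to 3′ on the plus strand, from the GENCODE M21 transcripts, exon numbers counted in Dnmt3b-210, with CpG in capitals.
Dnmt3b exon 11, chr2:153670849-153670908: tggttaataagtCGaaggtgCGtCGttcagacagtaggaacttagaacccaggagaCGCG
Dnmt3b exon 22, chr2:153683608-153683677: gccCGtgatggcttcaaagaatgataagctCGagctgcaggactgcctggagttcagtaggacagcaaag
Dnmt3b exon 23, chr2:153684359-153684477: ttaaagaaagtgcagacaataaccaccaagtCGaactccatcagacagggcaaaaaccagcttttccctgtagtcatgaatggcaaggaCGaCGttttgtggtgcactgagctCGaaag

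The 6 transcripts with exon 11 had 742 to 871 unlabeled, with a median of 819, and the 4 without it 535 to 863, with a median of 602. For exons 22 and 23, which occur together, the range was 557 to 863 with them and 535 to 871 without them. The highest value, 871, belonged to Dnmt3b-208, with 796 residues, which lacks exons 22 and 23. The ranges overlapped for every one of these exons, so no isoform class stood apart from the others. A transcript with a retained intron, Dnmt3b-211, which the rule for coding transcripts leaves out, had 433 labeled and 209 unlabeled.

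Dnmt3l (ENSMUSG00000000730; chromosome 10, 78041947 to 78063622, plus strand) encodes the cofactor of the de novo enzymes, and its 6 coding transcripts were higher in the labeled library in every case. The transcript with the highest value, Dnmt3l-203, had 547 labeled and 372 unlabeled. The 3 transcripts of 421 residues had 359 to 392 labeled and 245 to 269 unlabeled, and the 3 of 126 residues had 379 to 547 and 232 to 372. The ratios were 1.45 to 1.46 for the 421-residue transcripts and 1.47 to 1.64 for the 126-residue ones, a narrow gap between the classes with no replicate behind it. Aire, a gene on the opposite strand, overlaps the gene by 1664 bases, and its highest transcript had 191 labeled and 85.1 unlabeled. Summed over its 16 transcripts, Aire had 1517 labeled and 652 unlabeled. Whether reads were assigned by strand is not given in the sources used here, so the part of Aire in the Dnmt3l values was not tested.

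The dioxygenases differed from each other. Tet1 (ENSMUSG00000047146; chromosome 10, 62804570 to 62908996, minus strand) had 633 labeled and 1688 unlabeled for Tet1-206, which encodes 2039 residues, and 718 and 1582 for Tet1-201, with 2007 residues. The 3′ fragments had lower ratios than these complete transcripts. Tet1-203 had 195 labeled and 1159 unlabeled, a ratio of 0.168, and Tet1-205 had 363 and 1499, a ratio of 0.242, against 0.375 and 0.454 for the complete transcripts. Tet1-202, a processed transcript without a coding sequence, had 1649 and 2597. Tet2 (ENSMUSG00000040943; chromosome 3, 133463679 to 133545139, minus strand) had 255 labeled and 338 unlabeled for Tet2-201, with 1912 residues, and 233 and 328 for Tet2-204, with 1920 residues. The 5′ fragment Tet2-205 had 58.6 labeled and 57.2 unlabeled, a ratio of 1.02, above those of the complete transcripts, 0.710 and 0.755.

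Fragments were not different as a class. Across coding genes, transcripts whose end was not found differed from the complete transcripts of their gene by a median of -0.02 in the log2 labeled to unlabeled exon ratio (4543 transcripts), and those whose start was not found by 0.03 (1627 transcripts). The 8 and 6 such transcripts of the members differed by medians of -0.02 and 0.13.

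Tdg (ENSMUSG00000034674; chromosome 10, 82629828 to 82650799, plus strand) encodes the glycosylase that removes the oxidised bases, and its complete transcripts, Tdg-201 with 397 residues and Tdg-208 with 421, had 41.4 and 50.6 labeled and 79.4 and 96.9 unlabeled. A processed copy, Tdg-ps, had values of the same size, 42.6 labeled and 89.7 unlabeled, so the division of reads between the gene and the copy is uncertain. The same holds for Dnmt3a-ps1, with 46.9 labeled and 83.7 unlabeled, beside Dnmt3a. Mbd3 (ENSMUSG00000035478; chromosome 10, 80392539 to 80399550, minus strand) had 4 complete transcripts with 4.10 to 28.7 labeled and 8.27 to 24.8 unlabeled. Mbd3-201, with 285 residues, had 26.6 labeled and 24.2 unlabeled, and Mbd3-202, with 261 residues, had 4.10 and 11.9. The 3′ fragment Mbd3-206 had 39.05 labeled, the highest of the Mbd3 coding transcripts, and 24.5 unlabeled. Mbd3 isoforms therefore fell on both sides of equal values.

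How the genes as a whole divided between newly made and preexisting RNA was then compared with all coding genes. Exon values of the coding transcripts were summed per gene, and the labeled to unlabeled ratio was set against its median over 14127 coding genes with a mean exon sum above 1, which was 0.837. A gene was called high or low when its ratio was past 2-fold of that median. Of the 9 members, 4 were low and 0 were high, where 14.8% of all coding genes were low and 21.9% were high. The low genes were Uhrf1, 2.87-fold below the median, Tet1, 2.60-fold, Dnmt1, 2.54-fold, and Dnmt3b, 2.37-fold. They are the maintenance pair, one de novo enzyme and one oxidase.

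In sums, Uhrf1 had 484 labeled and 1659 unlabeled, a log2 difference of -1.52 from the median gene. Tet1 had 1909 and 5927, a log2 difference of -1.38. For Dnmt1 the sums were 262 and 797 (log2 -1.35), and for Dnmt3b they were 2639 and 7467 (log2 -1.24). The Tet1 sum includes 3′ fragments with low ratios. Over complete coding transcripts alone, Tet1 was at -1.01, just past 2-fold, with Uhrf1 at -1.63, Dnmt1 at -1.33 and Dnmt3b at -1.23. Tdg and Dnmt3a were below the median by less than 2-fold, with log2 differences of -0.90 from 212 and 475 and of -0.84 from 822 and 1757. Tet2, with 869 and 1133, lay close to the median gene at -0.13, and just above it, at 0.02, when genes with a mean exon sum above 10 set the median. Dnmt3l was the member with the highest ratio, 2537 labeled against 1705 unlabeled, a log2 difference of 0.83 that did not pass 2-fold, and Mbd3 had 104 and 93.6, a log2 difference of 0.41.

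**Figure D3:**
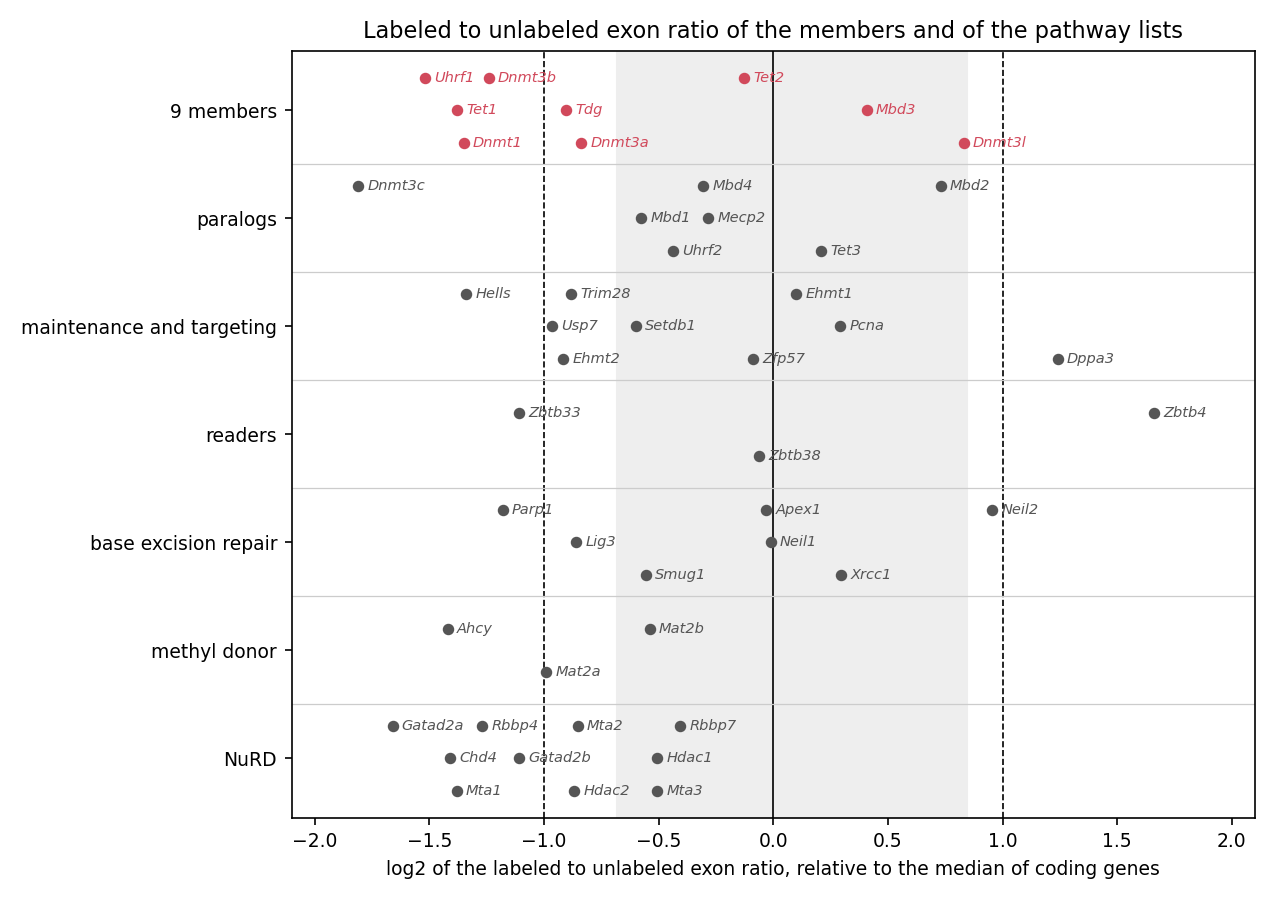
Log2 of the labeled to unlabeled exon ratio relative to the median of all coding genes, for the 9 members (red) and for the genes of 6 pathway lists (grey), 1 point per gene; the grey band holds the middle 50% of coding genes, from -0.68 to 0.84, and the dashed lines mark 2-fold. Uhrf1, Tet1, Dnmt1 and Dnmt3b lie left of the lower dashed line, no member lies right of the upper one, and the 10 NuRD subunits all lie below 0.

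The calls depended on the genes that set the median. The members are abundant, with a median exon sum of 1070 against 38.1 over all coding genes, and abundant genes had lower ratios. Among the 4401 genes with a mean exon sum above 100, the median log2 difference was -0.38, 10.0% were high and 19.6% were low. Against the median of those genes, a reference chosen after the values were seen, Uhrf1 alone stayed low at -1.14, where 7.61% of such genes were, and Tet1 (-0.995), Dnmt1 (-0.96) and Dnmt3b (-0.86) were not. Dnmt3l passed 2-fold in the other direction at 1.21, where 16.2% of such genes did. Tdg and Dnmt3a also became low, making 6, without centring, over all biotypes and after subtraction of leakage.

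The promoters of the genes at both ends of this order are shown for comparison, as 250 bases before a RefSeq start (GRCm38.p6), with CpG in capitals. Of 2 Uhrf1 windows, with 10 and 30 CpG, and 3 Dnmt3l windows, with 5, 4 and 3 CpG, the one with the most CpG is shown for Uhrf1 and the one with the fewest for Dnmt3l. The Uhrf1 window holds 30 CpG and 1 match to TTTNNCGC, searched on both strands. This pattern is a loose form of the motif of the E2F factors, which drive S-phase genes. The Dnmt3l window, before the start of its 126-residue transcripts, holds 3 CpG and no match.
Uhrf1, chr17:56304063-56304312: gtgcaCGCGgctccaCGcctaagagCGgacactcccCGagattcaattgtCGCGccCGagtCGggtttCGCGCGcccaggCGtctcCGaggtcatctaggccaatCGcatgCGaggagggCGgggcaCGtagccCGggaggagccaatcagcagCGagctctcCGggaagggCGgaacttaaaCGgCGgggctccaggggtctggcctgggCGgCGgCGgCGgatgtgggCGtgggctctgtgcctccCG
Dnmt3l, chr10:78055085-78055334: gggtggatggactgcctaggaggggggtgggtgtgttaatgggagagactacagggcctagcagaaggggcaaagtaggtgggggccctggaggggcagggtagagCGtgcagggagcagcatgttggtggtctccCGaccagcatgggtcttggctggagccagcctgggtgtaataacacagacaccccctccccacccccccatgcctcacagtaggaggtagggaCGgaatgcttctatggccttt

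Windows of all 9 genes were in the RefSeq table, 16 in number, and 12 held more CpG than the median promoter. TTTNNCGC occurred in 3 of the 16 windows (18.8%), both Uhrf1 windows and 1 of Dnmt1, against 4.28% of all promoters. The pattern itself contains a CpG, and these shares were not matched for CpG content. The Dnmt1 window is in part transcribed, with 166 of its bases in annotated exons of the gene. TATAAA occurred in the Mbd3 window alone, against 12.4% of all promoters. A match is a description of letters and not of a bound factor.

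Intron to exon ratios tell how much unprocessed RNA was left in each pool. Pre-mRNA is spliced within minutes, so the ratio is normally higher in newly made RNA. For the members the median labeled ratio was 0.178, against 0.577 over 13031 coding genes, and the median unlabeled ratio was 0.0343, against 0.122. Among the abundant genes, with a mean exon sum above 100, the medians were 0.331 and 0.0494. A labeled ratio of 1 or more was found in 0 of 9 members, where 28.9% of all coding genes and 5.82% of the abundant ones had it. No member thus had more intron than exon signal in the labeled library, when summed over its coding transcripts.

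Tdg stood highest, with a labeled ratio of 0.912 and an unlabeled ratio of 0.0607. All its coding transcripts had labeled ratios between 0.615 and 1.34, above those of every complete transcript of the methyltransferases. Next was Tet2, with 0.314 labeled and 0.0886 unlabeled. Tet1 had 0.0963 labeled, and its unlabeled ratio of 0.00588 was the lowest of the members, lower than in all but 1.79% of coding genes. In the complete transcripts alone the unlabeled ratios were 0.00702 and 0.00872 for Tet1 and 0.0393 and 0.0404 for Tet2, so the oxidases kept this order.

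For the methyltransferases, the labeled and unlabeled ratios were 0.178 and 0.0146 in Dnmt1 and 0.207 and 0.0275 in Dnmt3b. Uhrf1 was similar, with 0.155 and 0.0228. Dnmt3a had 0.176 and 0.135. Without the transcripts that have at least 10% of their intron bases in exons of other coding transcripts, it had 0.124 and 0.0237, so its unlabeled ratio fell to the level of the other methyltransferases. Dnmt3l had the lowest labeled ratio of the set, 0.0615, with 0.0343 unlabeled, a difference of 1.79-fold between pools. The median member had 6.80-fold and the median coding gene 4.65-fold, with a lower quartile of 2.29. Over all its coding transcripts, Dnmt3a was lower still, at 1.31-fold. Mbd3 was the 1 member whose labeled ratio, 0.222, was not above the unlabeled one, 0.288, which 9.06% of coding genes shared.

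**Figure D4:**
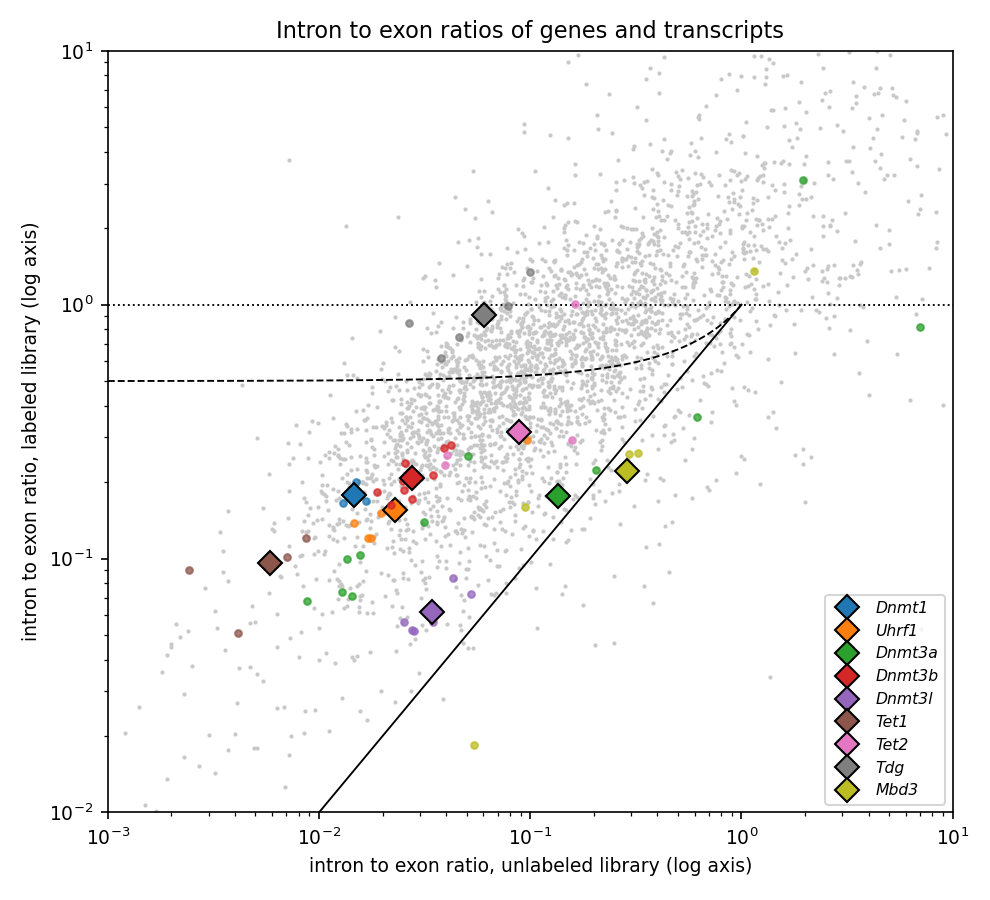
Intron to exon ratio in the labeled library against that in the unlabeled library, both on log axes; diamonds are the 9 genes, small coloured points their coding transcripts and grey points a sample of the other coding genes. The solid line marks equal ratios, the dotted line a labeled ratio of 1, and the dashed curve parts the transcripts with 1 model solution (above) from those with none or several (below); Tdg is the only member above the curve and Mbd3 the only one below the solid line.

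The 2 ratios can be turned into rates with a model of synthesis, processing and degradation at constant rates, in which a transcript is compatible if its labeled ratio is above the unlabeled ratio and below 1. Of the 53 member transcripts that had every value above 0 and exons above 1 on average, 44 (83.0%) were compatible, where 66.7% of all 31386 such coding transcripts were. Only 4 of them, all of Tdg, had an exact solution (7.55%, against 28.5% of all transcripts), and they were also the 4 above the curve, where 22.5% of all transcripts lay. A pair of solutions occurred in 0 member transcripts, against 5.75% of all. The other 40 lay below the curve of the model, and their rates are the closest approach and not a solution. Of the 9 incompatible transcripts, 4 had a labeled ratio that reached 1, and in 5 it was not above the unlabeled one.

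Under this model the mature RNA of the highest transcript of Tet2, the fragment Tet2-207, had a half-life of 18.6 min. Dnmt3b (22.6 min), Dnmt1 (23.5 min), Tet1 (31.8 min) and Uhrf1 (35.6 min) followed. Dnmt3a had 56.3 min and Dnmt3l 94.8 min. The median over all compatible transcripts was 19.0 min, with quartiles of 10.1 and 41.1 min. The highest transcript of Tdg and that of Mbd3 were incompatible. Tdg-208, the Tdg transcript with the longest coding sequence, had an exact solution at 55.2 min. The exact solutions of Tdg-201, Tdg-206 and Tdg-211 were 125, 532 and 4850 min, so they fix no half-life for Tdg.

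These half-lives depended on the calculation more than on the gene. Read as total RNA in place of unlabeled RNA, the second library gave 84.6 min for Dnmt1, 91.5 min for Tet1 and 9.34 min for Dnmt3l, which went from the longest to near the shortest. With least squares over both variables they were 1.96 to 5.64 min. Within a gene, the highest value over all calculations was 8.55 to 22.7 times the lowest, so these values fix no order of half-lives among the members.

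**Figure D5:**
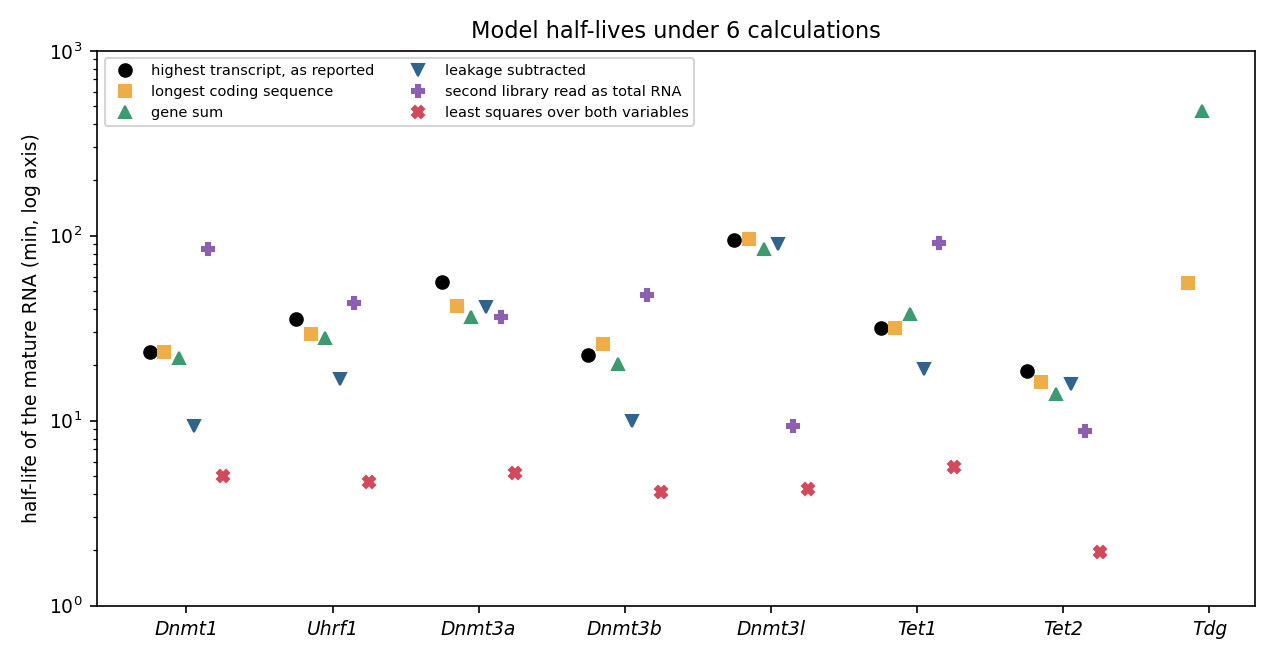
Half-life of the mature RNA under the model, in min on a log axis, for 8 genes under up to 6 calculations. Each symbol is 1 calculation, and Mbd3, incompatible in its highest and its longest coding transcript, is left out. Tdg has points only for the longest coding sequence, at 55.2 min, and the gene sum, at 472 min. Dnmt3l lies highest among 7 genes as reported, at 94.8 min, and at 9.34 min with the second library read as total RNA, where Dnmt1 and Tet1 rise to 84.6 and 91.5 min.

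Other genes of the pathway were counted by list. Of 39 genes, 2 were high and 10 low in the labeled to unlabeled exon ratio. Over all coding genes 21.9% were high and 14.8% low, and among those with a mean exon sum above 100, 10.0% and 19.6%. Of the 39, 31 were below the median gene, and the median log2 difference was -0.56, against 0 for all coding genes by construction and -0.38 for the abundant ones. Among 7 paralogs of members, Dnmt3c, a male germline methyltransferase that neighbours Dnmt3b, was low, with 31.1 labeled and 130 unlabeled (log2 -1.81). Its sequence resembles that of Dnmt3b, and the division of reads between them is uncertain. The highest paralog was Mbd2, a methyl-CpG reader, with 30.6 and 22.1 (log2 0.73). Tet3 and Uhrf2 had 20.7 and 21.4 and 50.2 and 81.2.

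In the list of 9 maintenance and targeting genes, 1 was high and 1 was low, where 21.9% and 14.8% of all coding genes were. Dppa3, whose protein opposes UHRF1, had 1389 labeled and 702.9 unlabeled (log2 1.24). Hells, a chromatin remodeller needed for methylation, had 494 and 1494 (log2 -1.34). All other genes of this list lay within 2-fold of the median gene, on both sides of it. Of the 3 readers, Zbtb4 was high from low values of 12.5 and 4.70, and Zbtb33 was low with 49.1 and 126.5. A list of 3 genes is too short to set against such shares.

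Of 7 base excision repair genes, 1 was low, where 14.8% of all coding genes were. It was Parp1, the nick sensor, with 659.5 labeled and 1780 unlabeled (log2 -1.18). The highest, the glycosylase Neil2, did not pass 2-fold at 15.0 and 9.26. Of 3 methyl donor genes, Ahcy, which clears the product of methylation, was low with 185 and 592 (log2 -1.42). Mat2b was the highest at 333 and 578 (log2 -0.54). This list is too short to set against that share. The NuRD list, the partners of Mbd3, had 5 low genes of 10, and all 10 were below the median gene. Its median log2 difference was -0.99, where abundant genes had -0.38 and 19.6% of them were low. Gatad2a had the lowest ratio, with 226 and 851 (log2 -1.66), and Rbbp7 the highest, with 1062 and 1680 (log2 -0.41). Mbd3, at 0.41 in these sums, lay above all 10 of its partners. Summed over complete coding transcripts alone, Mbd3 was at 0.18, and over all biotypes at -0.03.

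The genes most like the members at both ends were found from 4 log2 values (exon and intron sums in each library) by Euclidean distance over 13030 coding genes. Nearest to Uhrf1 was Mybl2, at 0.30, with exon sums of 541 labeled and 1552 unlabeled. Ddx47 and Rnps1 followed at 0.63 and 0.67. Nearest to Dnmt3l were Eif3m at 0.52, Ldhb at 0.53 and Eef1d at 0.61. Eif3m had exon sums of 1838 labeled and 1585 unlabeled.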

How the data were processed

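The labeled and the unlabeled pool of the stem cells were each measured in 1 library. The authors removed ribosomal reads, aligned the rest to exonic and intronic sequences with STAR (version 2.5.0 in the submitters' processing notes) and quantified them with RSEM. The deposited score is a relative abundance per transcript called TPM, and each column summed to 10 times a TPM column, so it was treated as a score in that unit. Members and gene lists were chosen with earlier results of these data known. Transcripts (121429 with exon and 91702 with intron values) were matched to GENCODE M21, and exon and intron values were summed over the coding transcripts of each gene. Genes with a mean exon sum above 1 set the median, with no pseudocount. No test was made, since each pool holds 1 library, and called means past 2-fold of the median, or a labeled intron to exon ratio of 1. All members and all their coding transcripts are described; of the pathway lists, paralogs and the highest and lowest gene of each list are named, and the 3 nearest genes of the extreme members. Rates followed the study's equations, with a root search over 4000 grid points down to 1e-12 of the domain, and where no root existed, the closest approach. The solver was tested on rates simulated from the model without noise, where a root exists. The closest approach in cases without a root was not tested in this way. Alternatives were other minimums, pseudocounts of 0.1 and 1, no centring, other sums, subtraction of leakage (0.142 times the unlabeled value, the 1st percentile of the ratio), and other calculations of the rates. Complete transcripts, introns without exonic bases, the longest coding sequence and a minimum of 100 were added after seeing the data. Other replicates were not analysed here. Sequences come from RefSeq (GRCm38.p6) and GENCODE M21. Python 3.11.15, numpy 2.4.6, pandas 2.3.3 and matplotlib 3.10.9 were used.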

Additional observations from a re-analysis of the deposited data

How the results depend on the processing

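No paired analysis was possible because each pool holds 1 library and the pools share 1 replicate number. The median log2 exon difference of the members, -0.90, passed 2-fold without centring (-1.16), with the most expressed coding transcript of each gene (-1.01), over all biotypes (-1.18) and after subtraction of leakage (-1.20). The count of members with a labeled intron to exon ratio of 1 or more, 0 as reported, was 1 with the most expressed transcript, 1 over all biotypes and 1 after subtraction of leakage, which also raised the median labeled ratio from 0.178 to 0.279. The count of low members, 4 as reported, was 6 without centring, 6 over all biotypes, 6 after subtraction of leakage and 5 with the most expressed transcript. Against genes with a mean exon value above 100, 1 member was low and 1 was high. The median half-life, 31.8 min, became 16.7 min once leakage was subtracted, and least squares over both variables gave 4.67 min. The cause of these shifts was not tested. No called value changed sign. Among values within 2-fold, Tet2 (-0.13) was at 0.02 and 0.26 against genes above 10 and above 100, and Mbd3 (0.41) was at -0.03 over all biotypes. Depth is unknown, without replicates no spread can be given, and the division of reads among isoforms and processed copies limits every value of a single transcript.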
